A study of Arabidopsis thaliana with 8 samples.

Results

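Transcripts of 7 Arabidopsis genes of camalexin and related indole metabolism were followed across 4 genotypes. The genes were CYP79B2 (AT4G39950), CYP79B3 (AT2G22330), CYP71A13 (AT2G30770), PAD3 (AT3G26830, also called CYP71B15), CYP71A12 (AT2G30750), FOX1 (AT1G26380) and CYP82C2 (AT4G31970). They were read by 9 of the 43603 probes of the array, taken as every non-control probe that carries a RefSeq mRNA of these loci, and 7 of the 25371 genes that a probe could be matched to. CYP79B2 and CYP71A13 had 2 probes each. CYP71A12 had been picked because it was lower in ros1-1 hda6-10, so the comparison of that line with ros1-1 is given for all 7 genes as a description without a test.

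There were 4 groups of 2 arrays: C24, ros1-1, and the double mutants ros1-1 hda6-9 and ros1-1 hda6-10. C24 is the wild type line, and all 4 lines carry the RD29A promoter fused to luciferase (RD29A::LUC) with a kanamycin resistance transgene. The ros1-1 line lacks a working ROS1, a DNA glycosylase that removes methylcytosine. Both hda6 lines are suppressors found in the ros1-1 background, so they carry ros1-1 as well and are called hda6-9 and hda6-10 below. HDA6 is a histone deacetylase. The hda6-9 line has a T-DNA insertion close to the stop codon of HDA6, and hda6-10 has a small deletion that shifts the reading frame at the end of the first exon. Each allele is 1 line. Whole seedlings were harvested at 12 days, after 1 day at 4 °C. The methods name more biological replicates than the arrays analysed here, and whether an array pools cultures is not given in the sources used here. The labels do not say that the 2 samples of a genotype came from separate cultures, so a p-value measures only the spread between these samples.

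Camalexin is the main phytoalexin of Arabidopsis, an indole compound made from tryptophan after attack by many fungi and bacteria. CYP79B2 and CYP79B3 turn tryptophan into indole acetaldoxime, the branch point that also feeds the indole glucosinolates. CYP71A13 and CYP71A12 turn the aldoxime into indole acetonitrile, and PAD3 carries out the last step to camalexin. A second branch from CYP71A12 runs through FOX1, a flavin oxidase, to indole carbonyl nitrile, which CYP82C2 hydroxylates.

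Values are log2 processed signals relative to the 75th percentile of the same array, so a value of 0 is that percentile. Signals were well above background in 77.2% to 80.6% of non-control spots per array, none was saturated, and Pearson's r between sister arrays was 0.991 to 0.993 across probes, which are not independent replicates. The brighter HDA6 probe read -1.76 and -1.78 in hda6-10, 0.90 and 0.84 in hda6-9, and between -0.31 and -0.17 in ros1-1 and C24. The 4 leaf marker genes were well above background on every array, with a summed signal of 543 to 805 times the 75th percentile. The summed signal of 5 root marker genes was 0.305 to 0.356 in ros1-1, 0.123 to 0.293 in C24, 0.238 to 0.262 in hda6-10 and 0.0331 to 0.117 in hda6-9, where 3 or 4 of them were well above background and AGP30 was so on neither array. Root signal was therefore lowest in hda6-9, and its part in the values of that line below was not tested. The 4 seed storage genes summed to 0.0246 in C24 replicate 2, 0.0616 in hda6-9 replicate 2 and 0.65 to 1.86 on the other arrays. The 3 flower genes summed to 0.00979 to 0.032, and AP1 was well above background on neither array of either allele. Both hda6-10 arrays and ros1-1 replicate 1 shared a slide, hda6-9 replicate 1 shared another with ros1-1 replicate 2, hda6-9 replicate 2 had its own, and both C24 arrays had the last. For C24, slide and genotype cannot be told apart.

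**Figure D1:**
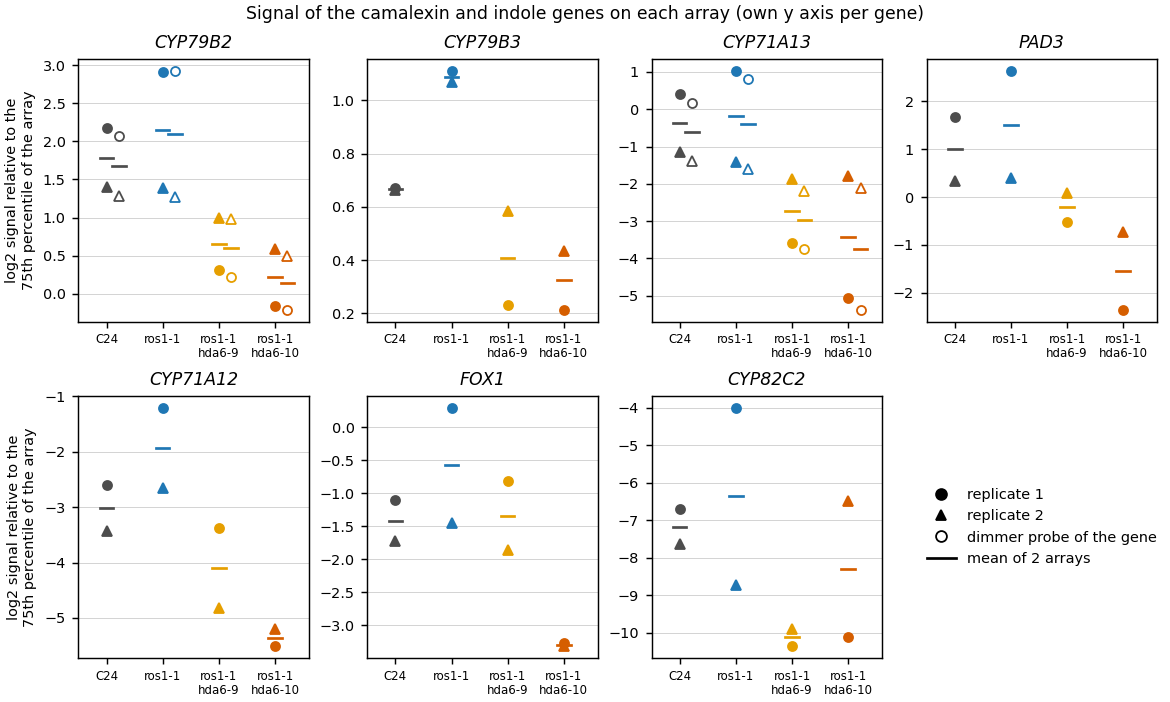
Log2 signal relative to the 75th percentile of the array (y axis, own range per gene) for the 7 genes in C24, ros1-1, ros1-1 hda6-9 and ros1-1 hda6-10 (x axis). Each point is 1 array (circle replicate 1, triangle replicate 2, open symbols the dimmer probe of a gene) and each line a mean of 2 arrays. The ros1-1 replicate 1 array was the highest for every probe, and CYP79B3 spans 0.90 log2 units in all against 6.09 for the brighter CYP71A13 probe.

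CYP79B2 and CYP79B3 stand at the entry of the pathway. The brighter CYP79B2 probe read 2.17 and 1.40 in C24, 2.91 and 1.39 in ros1-1, 0.31 and 0.99 in hda6-9, and -0.17 and 0.59 in hda6-10. All 4 hda6 arrays lay below all 4 arrays of ros1-1 and C24, and the ros1-1 arrays differed from each other by 1.52. The dimmer probe gave the same order, with 2.92 and 1.28 in ros1-1 and -0.21 and 0.50 in hda6-10. The genotype mean of the brighter probe was 3.82-fold lower in hda6-10 than in ros1-1 (log2 difference -1.93 ± 0.59, SE), with -2.69 on their shared slide and -1.17 without ros1-1 replicate 1. In hda6-9 it differed from ros1-1 by -1.50 ± 0.59 (limma adjusted p = 0.15), and within the shared slide by -1.08. The other probe differed by -1.50 ± 0.62 (limma adjusted p = 0.17).

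CYP79B3, which catalyses the same reaction as CYP79B2, had the closest replicates in the set. It read 0.67 and 0.66 in C24, 1.11 and 1.07 in ros1-1, 0.23 and 0.58 in hda6-9, and 0.21 and 0.43 in hda6-10. No array of either allele reached a C24 array, and no C24 array reached a ros1-1 array. In hda6-9 the mean was 1.60-fold lower than in ros1-1, a log2 difference of -0.68 (95% interval -1.03 to -0.34) with a limma adjusted p of 0.034. This was the lowest adjusted p among the 7 genes, and the change stayed under the 2-fold needed for a call. Its adjusted p ran from 0.028 to 0.13 over the alternatives, reaching 0.13 with slide as a fixed block, 0.12 and 0.13 without either ros1-1 array and 0.099 without hda6-9 replicate 1. Within the slide that hda6-9 and ros1-1 shared, the difference was -0.84. In hda6-10 the mean was 1.70-fold lower than in ros1-1 (log2 difference -0.76 ± 0.14, SE), and -0.79 on their shared slide.

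CYP71A13, which makes the acetonitrile for camalexin, had the widest spread between arrays of 1 genotype among the genes measured on every array. The brighter probe read 0.41 and -1.14 in C24, 1.03 and -1.41 in ros1-1, -3.60 and -1.87 in hda6-9, and -5.06 and -1.78 in hda6-10. All hda6 arrays were below all ros1-1 and C24 arrays, although hda6-10 replicate 2 lay close below ros1-1 replicate 2. The mean was 9.37-fold lower in hda6-10 than in ros1-1 (log2 difference -3.23 ± 1.38, SE). Without hda6-10 replicate 1 this difference was -1.59, and without replicate 2 it was -4.87. For hda6-9 against ros1-1 the difference was -2.54 (95% interval -5.95 to 0.87, limma adjusted p = 0.27), with -2.18 on the shared slide. The dimmer probe gave -3.34 in hda6-10 and -2.58 in hda6-9. CYP71A12 and CYP71A13 are close copies with 2 annotated genes between them on chromosome 2, and how far their probes read each other's transcript was not tested.

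PAD3, the last enzyme of the camalexin branch, read 1.68 and 0.34 in C24, 2.63 and 0.39 in ros1-1, -0.52 and 0.09 in hda6-9, and -2.35 and -0.73 in hda6-10. Each allele lay apart from ros1-1 and C24, and hda6-10 also lay below hda6-9. The mean in hda6-10 was 8.30-fold lower than in ros1-1 (log2 difference -3.05 ± 0.92, SE), with -4.17 on the shared slide and -1.93 without ros1-1 replicate 1. In hda6-9 the difference from ros1-1 was -1.73 ± 0.92 (limma adjusted p = 0.26), and -0.92 within the shared slide.

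CYP71A12 stands where the camalexin and indole carbonyl nitrile branches part. It read -2.61 and -3.44 in C24, -1.21 and -2.65 in ros1-1, -3.37 and -4.82 in hda6-9, and -5.51 and -5.20 in hda6-10. The hda6-10 arrays were the lowest pair and differed from each other by 0.31, whereas hda6-9 overlapped C24. The fall from ros1-1 to hda6-10, for which the gene was picked, was -3.42 ± 0.66 (SE) on the log2 scale. It was -2.70 without ros1-1 replicate 1, -4.15 without ros1-1 replicate 2 and -2.38 with another background correction (normexp). In hda6-9 the log2 difference from ros1-1 was -2.17 ± 0.66, and -0.72 on the shared slide. The means of hda6-9 and C24 share no array with the comparison that picked the gene, but limma estimated the spread from the arrays of every genotype. The difference of hda6-9 from C24 was -1.07 (95% interval -2.70 to 0.55, limma adjusted p = 0.31).

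FOX1, the oxidase of the carbonyl nitrile branch, had its lowest signals on the hda6-10 arrays. It read -1.11 and -1.72 in C24, 0.29 and -1.45 in ros1-1, -0.82 and -1.86 in hda6-9, and -3.27 and -3.32 in hda6-10. The hda6-9 arrays overlapped those of both C24 and ros1-1, and on the slide they shared hda6-9 was 0.63 above ros1-1. The hda6-10 mean was 6.56-fold below ros1-1 (log2 difference -2.71 ± 0.63, SE), with -1.84 without ros1-1 replicate 1 and -3.59 without replicate 2. Against hda6-9 it was 3.87-fold lower (log2 difference -1.95, 95% interval -3.50 to -0.41), with an unadjusted p of 0.022 and a limma adjusted p of 0.14. The difference was -4.22 with slide as a fixed block and ran from -2.47 to -1.43 with 1 array left out.

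CYP82C2, the hydroxylase of that branch, was near background, and was not well above it in hda6-9. It was well above background on both C24 arrays, 1 ros1-1 array, 1 hda6-10 array and no hda6-9 array. The readings were -6.71 and -7.63 in C24, -3.99 and -8.73 in ros1-1, -10.36 and -9.89 in hda6-9, and -10.12 and -6.49 in hda6-10. The arrays of hda6-10 enclosed those of C24, so no order was measured between these lines. A minimum fold below puts a dim line at the lowest signal well above background on each array, or at its own if higher. Here the hda6-9 signals were not below that level, so none was raised and no minimum is given. At the measured values C24 was 7.75-fold higher than hda6-9 (limma adjusted p = 0.30). That size depends on the background correction, and with normexp hda6-9 differed from C24 by -0.33 on the log2 scale. From ros1-1, where only replicate 1 was well above background, hda6-9 differed by -3.77 (limma adjusted p = 0.21), by -1.40 without that array and by -1.08 with normexp.

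**Figure D2:**
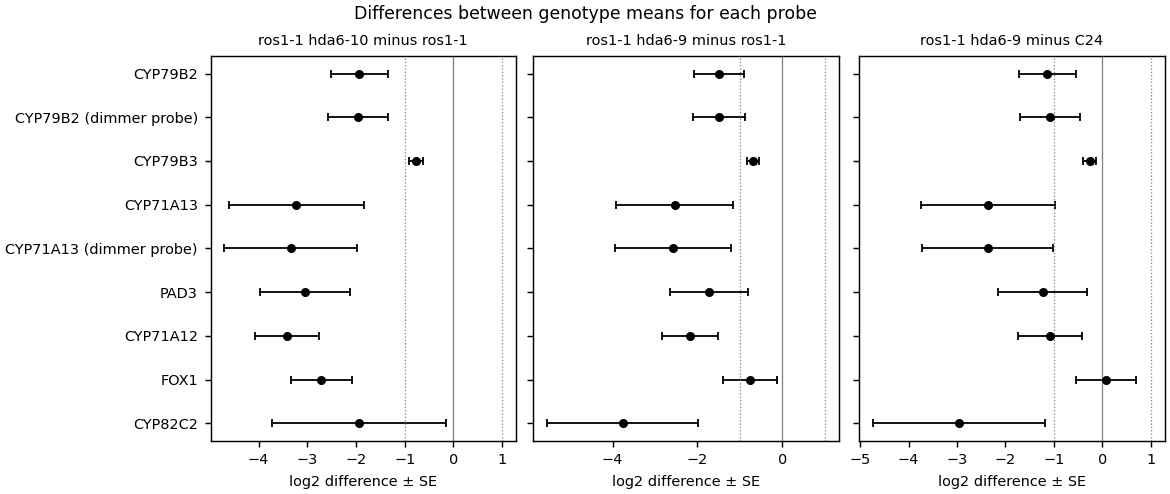
Log2 difference between genotype means (x axis) for each of the 9 probes (y axis), with limma's standard error as the bar, for hda6-10 minus ros1-1, hda6-9 minus ros1-1 and hda6-9 minus C24. Dotted lines mark 2-fold; CYP82C2 is drawn at its measured values although it was not well above background in hda6-9. In hda6-10 every probe lies left of 0 and 8 of 9 lie beyond 2-fold, with CYP79B3 the exception.

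Taking the 7 genes as a set, 8 of 9 probes were over 2-fold lower in hda6-10 than in ros1-1 and their median log2 difference was -2.71. Of all 35391 probes tested, 3.02% were that much lower and the median was 0.0241. One of the 8 was CYP82C2, which differed by -0.28 with normexp. This contrast chose CYP71A12, so nothing is read from the count. In hda6-9 against ros1-1, none of the other 8 probes was called lower or higher by limma (adjusted p under 0.05 and over 2-fold), while 1.37% of all probes were called lower. At an unadjusted p under 0.05 and over 2-fold, 1 of the 8, a CYP79B2 probe, was lower, against 2.89% of all probes. The median of the 8 was -1.61 beside 0.0238 for all probes, all 8 were below 0, and 6 were over 2-fold lower where 3.95% of all probes were. Without ros1-1 replicate 1 the 6 became 3, both CYP71A13 probes (-1.32 and -1.37) and CYP82C2 (-1.40). CYP82C2 was well above background on no hda6-9 array. Without that ros1-1 array PAD3 was at -0.61, the brighter CYP79B2 probe at -0.74 and FOX1 at 0.11. This comparison shares the ros1-1 arrays with the one that picked CYP71A12. Of the 8, CYP79B3 alone had an adjusted p under 0.05, with a change under 2-fold.

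Between the alleles, 0 of 8 probes were called by limma, and 0.54% of all probes were lower in hda6-10. At an unadjusted p under 0.05 and over 2-fold, FOX1 was the 1 probe lower, against 1.04% of all probes. The median of the 8 was -0.573, beside -0.0179 for all probes, and 7 of 8 were below 0. CYP79B3 differed by -0.08 between the alleles (95% interval -0.43 to 0.26). For the brighter CYP71A13 probe the interval ran from -4.10 to 2.72, and the difference turned from -0.69 to 0.95 without hda6-10 replicate 1.

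C24 and ros1-1 are the lines with HDA6 intact. Again 0 of 8 probes were called by limma, with 0.0932% of all probes called lower in C24, and 0 of 8 passed at an unadjusted p under 0.05 and over 2-fold, where 0.737% of all probes were lower and 1.74% higher. All 8 were below 0 in C24, with a median of -0.42 beside 0.00972 for all probes. Without ros1-1 replicate 1, the highest array of the set, 7 of the 8 probes turned to the other side of 0, and CYP79B3 alone did not. For CYP79B3 the difference was -0.42 (95% interval -0.77 to -0.08, limma adjusted p = 0.33).

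The comparison of hda6-9 with C24 used none of the arrays on which CYP71A12 was picked. Of all 9 probes, 0 were called by limma (2.04% of all probes were called lower), and 0 passed at an unadjusted p under 0.05 and over 2-fold (3.5% of all probes were lower and 4.64% higher). The median was -1.13 beside 0.00701 for all probes, and 7 of 9 were over 2-fold lower, where 4.88% of all probes were. One of the 7 was CYP82C2, which was well above background on no hda6-9 array and differed by -0.33 with normexp. Without C24 replicate 1 the count was 3, both CYP71A13 probes (-1.59 each) and CYP82C2 (-2.49). There PAD3 differed by -0.56 and the brighter CYP79B2 probe by -0.74. Without hda6-9 replicate 1 the count was 4. Both hda6-9 arrays were below both C24 arrays for 7 of 9 probes and 5 of 7 genes, where 31.1% of all probes were. CYP71A12 and FOX1 overlapped, and the 5 genes include the dim CYP82C2. PAD3 differed by -1.23 (95% interval -3.50 to 1.05, limma adjusted p = 0.40) and the brighter CYP79B2 probe by -1.13 (limma adjusted p = 0.24).

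In hda6-10 against C24, 0 of 8 probes were called by limma, where 1.09% of all probes were called lower. At an unadjusted p under 0.05 and over 2-fold 4 were lower, both CYP79B2 probes, PAD3 and FOX1, against 2.29% of all probes. PAD3 was 5.85-fold lower (log2 difference -2.55 ± 0.92, SE, limma adjusted p = 0.15) and FOX1 3.67-fold lower (-1.88 ± 0.63, SE, limma adjusted p = 0.13). The median of the 8 was -1.72, beside 0.0182 for all probes, and 7 of the 8 were over 2-fold lower, where 3.37% of all probes were. One of the 7 was CYP82C2 (-1.13), whose arrays overlapped between these lines and whose difference was 0.47 with normexp and 0.69 with the combined table. The count was 6 without C24 replicate 1 or hda6-10 replicate 1. These comparisons share the hda6-10 arrays with the one that picked CYP71A12, for which the difference from C24 was -2.33.

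Over the 4 genotypes, 7 probes had the same order of means, ros1-1, then C24, hda6-9 and hda6-10. These were the probes of CYP71A12, CYP71A13, PAD3, CYP79B2 and CYP79B3. The arrays of ros1-1 and C24 overlapped for all of them except CYP79B3. Those of C24 and hda6-9 lay apart for all except CYP71A12, and those of the alleles overlapped for all except CYP71A12 and PAD3. All 4 hda6 arrays were below all 4 arrays of ros1-1 and C24 for 6 of 9 probes, those of CYP71A13, PAD3, CYP79B2 and CYP79B3, which held for 7.77% of all probes. That count contains the contrast that picked CYP71A12. Leaving out an array can only keep or raise this count, so the 6 to 8 found without any 1 array does not test it. With the values processed otherwise the count was 6 or 7. In extracts of whole seedlings, fewer expressing cells and less RNA per cell cannot be told apart.

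**Figure D3:**
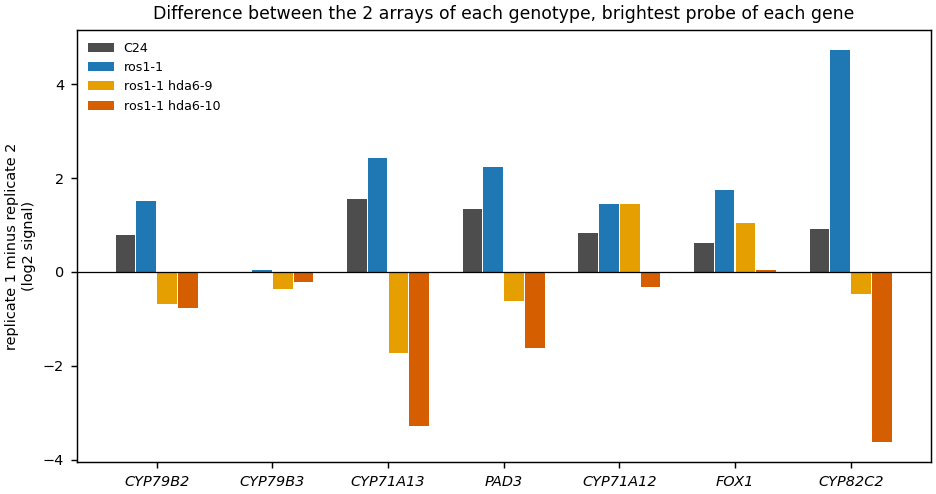
Replicate 1 minus replicate 2 in log2 signal (y axis, bars from 0) for the brightest probe of each gene (x axis) in each genotype. Replicate 1 was the higher array of C24 and ros1-1 for all 7 genes, with CYP79B3 close to 0 in both, and for all genes except CYP71A12 and FOX1 replicate 2 was the higher array of both alleles.

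The arrays of a genotype did not differ alike for all genes. CYP71A13, PAD3 and CYP79B2 were higher in replicate 1 of C24 (by 1.55, 1.33 and 0.78) and of ros1-1 (by 2.44, 2.24 and 1.52). They were lower in replicate 1 of hda6-9 (by -1.73, -0.61 and -0.68) and of hda6-10 (by -3.28, -1.62 and -0.76). CYP71A12 and FOX1 were instead higher in replicate 1 of hda6-9, by 1.45 and 1.04, and their hda6-10 arrays were within 0.31 and 0.05 of each other. CYP79B3 (by -0.35 and -0.22) and CYP82C2 (by -0.47 and -3.63) were also lower in replicate 1 of hda6-9 and hda6-10. Replicate numbers carry no order and do not link arrays of different genotypes.

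The 5 genes whose signal was most like that of CYP71A12 over the 8 arrays were taken from 615 candidate genes. MYB122 and FOX5 among them are in the gene lists below. The share of list genes among the candidates was not counted. The points share the 4 genotypes, and CYP71A12 was picked on some of them, so the likeness is a description. CYP710A1, a sterol desaturase, had a Pearson r of 0.968. MYB122, a MYB factor that acts with MYB34 and MYB51 on indole glucosinolate genes, had an r of 0.965. It read -2.74 and -3.43 in C24, -2.44 and -3.27 in ros1-1, -3.50 and -5.32 in hda6-9, and -5.95 and -5.60 in hda6-10. AT5G44990 (r = 0.961), AT1G26420, or FOX5 (r = 0.955), and AT3G18250 (r = 0.954) completed the 5. FOX5 lies in the same row of genes as FOX1, with 3 genes between them.

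Further genes were read from 6 lists of 68 genes with 86 probes, of which 82 were tested, called the pathway lists here. One list, with 16 of the tested probes, holds 20 close relatives of the 7 genes, whose part in the pathway was not tested. In hda6-10, 16 of the 82 were over 2-fold lower than in ros1-1 and 3 were higher, where 3.02% and 6.52% of all probes were. Close relatives gave 6 of the 16 and 2 of the 3. The median over the 82 was -0.177. In hda6-9 against ros1-1, limma called 2 higher and 2 lower, where 4.30% and 1.37% of all probes were called, and the median was -0.134. Between the alleles 1 was called higher in hda6-10 (1.44% of all probes) and 0 lower. For C24 against ros1-1, 0 were called by limma (0.342% of all probes were called higher), with 2 at an unadjusted p under 0.05 and over 2-fold. In hda6-9 against C24, 2 were called higher (4.02% of all), both close relatives, and 0 lower (2.04% of all). In hda6-10 against C24, 3 were called higher (3.65% of all) and 2 lower (1.09% of all). At an unadjusted p under 0.05 and over 2-fold, 8 of the 82 (9.76%) were lower in hda6-9 than in ros1-1, where 2.89% of all probes were. In hda6-10 against C24, 11 (13.4%) were, where 2.29% of all probes were, and in hda6-9 against C24 4 (4.88%) were, where 3.5% of all probes were. Close relatives gave 3 of the 8, 4 of the 11 and 3 of the 4. All 4 hda6 arrays lay below all 4 ros1-1 and C24 arrays for 22 of the 82 and for 7.77% of all probes, a count that contains the contrast that picked CYP71A12. Both hda6-9 arrays were below both C24 arrays for 34 of the 82, beside 31.1% of all probes.

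**Figure D4:**
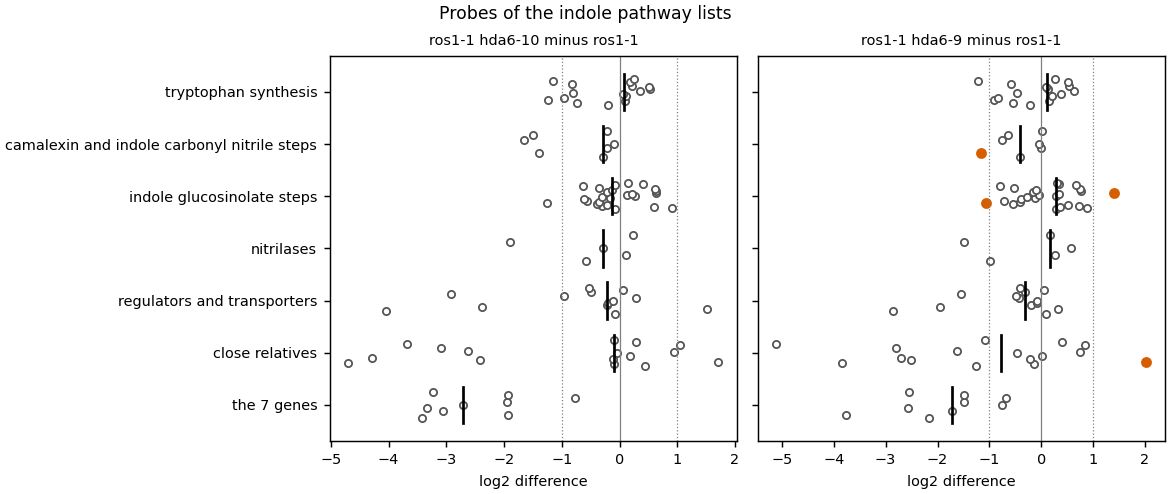
Log2 difference from ros1-1 (x axis) of each tested probe in hda6-10 and hda6-9. The y axis holds 6 lists, of indole pathway genes and of close relatives, and the 7 genes. Bars are medians, filled points in the hda6-9 panel passed the limma call and dotted lines mark 2-fold; in hda6-10 the 7 genes have a median of -2.71 and no list has one beyond -0.30.

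Tryptophan synthesis had 16 probes and a median near 0 in both alleles (0.0742 in hda6-10 and 0.112 in hda6-9, against ros1-1). Of the 16, 9 were above 0 and 7 below in each allele. TSA1, the alpha subunit of tryptophan synthase, read 2.31 and 2.04 in C24, 2.78 and 2.07 in ros1-1, 1.40 and 1.63 in hda6-9, and 1.18 and 1.17 in hda6-10. Its difference from ros1-1 was -1.25 in hda6-10 and -0.90 in hda6-9 (limma adjusted p = 0.068). ASB1, an anthranilate synthase subunit, differed by -1.15 and by -1.22 (limma adjusted p = 0.11). Both genes were lower on all hda6 arrays than on any ros1-1 or C24 array, which held for 7.77% of all probes. IGPS, ASA1 and the dimmer TRP1 probe were so too. The brighter TRP1 probe overlapped, at 1.06 in hda6-9 replicate 2 and 1.05 in ros1-1 replicate 2. From ros1-1, IGPS differed by -0.96 in hda6-10 and -0.83 in hda6-9 (limma adjusted p = 0.088). ASA1 differed by -0.80 and by -0.47 (limma adjusted p = 0.23).

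The steps between the cytochromes P450 include glutathione transferases. GSTU4 read 1.67 and 1.37 in C24, 1.87 and 1.88 in ros1-1, 1.01 and 0.43 in hda6-9, and 0.49 and 0.48 in hda6-10. It fell in hda6-9 against ros1-1 (log2 difference -1.16, limma adjusted p = 0.022) and was lower in hda6-10 than in C24 (-1.04, limma adjusted p = 0.035). The first call was lost with slide as a fixed block (adjusted p = 0.15) and without hda6-9 replicate 2 or either ros1-1 array. The second was lost in 7 of 16 alternatives, each C24 array among them. GSTF6 differed from ros1-1 by -1.50 in hda6-10 and by -0.64 in hda6-9 (limma adjusted p = 0.33).

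CYP83B1, which takes the aldoxime into indole glucosinolates, read 1.97 and 1.61 in C24, 2.19 and 1.92 in ros1-1, 0.76 and 1.24 in hda6-9, and 0.74 and 0.87 in hda6-10. It was lower in hda6-9 than in ros1-1 by a called -1.06 (limma adjusted p = 0.03), kept in 10 of 17 alternatives and lost with slide as a fixed block, with the replicate block, and without single arrays of ros1-1, hda6-9 and hda6-10. IGMT1, a methyltransferase that modifies these glucosinolates, rose in hda6-9 by 1.39 at 1 probe (limma adjusted p = 0.017) and by 0.66 at the other. That call was lost without either hda6-9 array. The remaining probes of the 25 in this list were not called in hda6-9 against ros1-1, and hda6-10 was not tested against ros1-1. The list's median difference from ros1-1 was 0.276 in hda6-9 and -0.126 in hda6-10. NIT2, a nitrilase, had a difference of -1.91 in hda6-10 and -1.50 in hda6-9 (limma adjusted p = 0.096).

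Among regulators and transporters, MYB34 was the 1 gene with a call. MYB34 activates genes of tryptophan and indole glucosinolate synthesis. It read 0.06 and 0.10 in C24, -0.36 and -0.11 in ros1-1, 0.04 and 0.16 in hda6-9, and 1.51 and 1.04 in hda6-10. It was higher in hda6-10 than in C24 by 1.19 (limma adjusted p = 0.015) and than in ros1-1 by 1.51 (no test). The call against C24 was lost without hda6-10 replicate 1 and without either C24 array (adjusted p up to 0.078). ABCG40, a transporter, had the largest negative difference of this list, -4.04 in hda6-10 and -2.87 in hda6-9 (limma adjusted p = 0.21). Its arrays ran from 0.48 to 3.10 in ros1-1 and from -2.43 to 0.28 in hda6-9. MYB122 and NAC042, a NAC factor that acts on camalexin genes, differed by -2.91 and -2.39 in hda6-10 and by -1.55 and -1.95 in hda6-9 (limma adjusted p = 0.16 and 0.15). Other regulators of the list changed less. In hda6-10 WRKY33 differed from ros1-1 by 0.28, MYB51 by -0.96, MPK3 by -0.19 and MPK6 by -0.12. In hda6-9 WRKY33 differed by -0.43 and MYB51 by -0.49 (limma adjusted p = 0.25 and 0.15). Of the 13 probes, 3 were above 0 and 10 below in each allele, with medians of -0.223 in hda6-10 and -0.308 in hda6-9.

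Relatives of the 7 genes went both ways. FOX2, FOX3, FOX4 and FOX5, which follow FOX1 on chromosome 1, were each lower on all hda6 arrays than on any ros1-1 or C24 array, which held for 7.77% of all probes. FOX2 and FOX3 were well above background on only 1 hda6-9 array, and FOX4 on only 1 hda6-10 array. FOX4 in hda6-10 replicate 2 (-5.55) lay close below ros1-1 replicate 2 (-5.33). How far the probes of these neighbouring relatives read each other's transcripts was not tested. FOX5 read -2.05 and -2.65 in C24, -1.07 and -2.36 in ros1-1, -3.37 and -3.32 in hda6-9, and -4.28 and -4.39 in hda6-10, and was lower in hda6-10 than in C24 (log2 difference -1.99, limma adjusted p = 0.045). That call held in 7 of 16 alternatives and was lost without either array of C24, hda6-9 or hda6-10, and with normexp, the combined table or no filter on dim probes. FOX3 was well above background on neither hda6-10 array, and by the minimum fold described for CYP82C2 ros1-1 was 20.1-fold higher. CYP82C3, next but one to CYP82C2, was well above background on neither array of either allele. By the same rule C24 was 4.66-fold above hda6-9 (limma adjusted p = 0.24 at the measured values). In both cases not every dim array was raised, so neither fold is a strict minimum. CYP71A18 read -2.78 and -4.18 in C24, -4.06 and -4.49 in ros1-1, -7.26 and -6.68 in hda6-9, and -10.34 and -6.80 in hda6-10, and its difference between hda6-10 and C24 was -5.09 (limma adjusted p = 0.051). On hda6-10 replicate 1 it was not well above background, so the size of that difference was not measured.

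CYP71A14, of the same P450 family, rose in both alleles. Its arrays read -5.77 and -5.95 in C24, -5.62 and -5.88 in ros1-1, -3.78 and -3.68 in hda6-9, and -4.06 and -4.02 in hda6-10. The rise in hda6-9 was 2.02 against ros1-1 (limma adjusted p = 0.00039) and 2.13 against C24 (limma adjusted p = 0.00035), and hda6-10 was 1.82 above C24 (limma adjusted p = 0.00069). These calls held in all 17, 16 and 16 alternatives run for them. CYP71A23 rose above C24 by 1.03 in hda6-9 (limma adjusted p = 0.0054) and by 1.22 in hda6-10 (limma adjusted p = 0.0033). The first was lost in 5 of 16 alternatives, among them those without hda6-9 replicate 2 or C24 replicate 1, and the second in none of 16. CYP71A16 and CYP71A27, also named by size, differed from ros1-1 by 0.44 and -0.10 in hda6-10 and by -1.26 and -1.09 in hda6-9 (limma adjusted p = 0.22 and 0.19). CYP71A28 was well above background on neither ros1-1 array and on 1 array of each allele. At the measured values, which are not minimum folds, hda6-10 was 2.06-fold and hda6-9 1.78-fold above ros1-1 (limma adjusted p = 0.32 for hda6-9).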

How the data were processed

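Total RNA of 8 seedling samples, 2 per genotype, was read on one-colour Agilent arrays. The authors used Agilent's Feature Extraction (version 10.7.1.1 in the file headers) for background subtraction, spatial detrending and outlier flags, and deposited the intensity of each spot on a linear scale. The combined table of the series holds the background-subtracted intensity of the same spots, to a relative difference of at most 0.003.

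With R 4.3.3 and limma 3.58.1, outlier spots were left out, the 75th percentile of each array over non-control probes was subtracted from log2 processed signal, and spots of a probe were averaged. Testing was limited to probes whose signal stood well above background on the 2 arrays of 1 or more genotypes. limma's lmFit and eBayes fitted a mean per genotype to all 8 arrays (prior degrees of freedom 1.8), and Benjamini-Hochberg adjustment ran over all 35391 probes. A call needed over 2-fold and an adjusted p under 0.05. Scripts were tested on simulated data.

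The 7 genes and the pathway lists were chosen with earlier results of these data known. Every probe of the 7 genes is given. Other genes of the lists are named where called, or where their brightest probe differed over 2-fold from ros1-1 in an allele. IGPS, ASA1 and TRP1 are named for the non-overlap of their arrays, a rule used only in the tryptophan list. In other lists it also held for SOT16, UGT74B1 and NIT4, among others. WRKY33, MYB51, MPK3 and MPK6 are named as regulators with smaller changes. The genes most like CYP71A12 were taken by Pearson's r over the 8 arrays. RefSeq accessions joined 34267 probes to loci of TAIR10.1. The array design refers to an older build, so no position is given.

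Alternatives were normexp (offset 50, on median spot and background brightness, since the planned mean brightness was not among the columns used here), quantile normalization, a median shift, the combined table, other filters, slide as a fixed or random block, the replicate block, each array left out and unadjusted p-values. Non-overlap of arrays under further settings, and the members' differences and counts over 2-fold without each array, were added after seeing the data. The array files give signal over background rather than depth: 77.2% to 80.6% of non-control spots stood well above it, and precision is limited by the number of arrays.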

Additional observations from a re-analysis of the deposited data

Results flagged for a closer look

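One result of the indole pathway differed between the alleles in a direct test. MYB34 was 1.18 higher on the log2 scale in hda6-10 than in hda6-9 (limma adjusted p = 0.032, higher on both arrays). The call held in 8 of 17 alternatives, and the adjusted p ran from 0.023 to 0.30 over them. It was lost with slide as a fixed block, with the replicate block, and without hda6-10 replicate 1 or any single array of hda6-9, ros1-1 or C24.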

How the results depend on the processing

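No probe of the 7 genes was called in any tested comparison under any alternative that kept the adjusted p. With an unadjusted p under 0.05 and over 2-fold, 1 was called in hda6-9 against ros1-1, 1 between the alleles and 4 in hda6-10 against C24. Calls in the pathway lists then numbered 10 (4 as reported) in hda6-9 against ros1-1, 3 (1) between the alleles, 2 (0) in C24 against ros1-1, 7 (2) in hda6-9 against C24 and 14 (5) in hda6-10 against C24. Quantile normalization gave 1 in hda6-9 against C24 and 8 in hda6-10 against C24, and the median shift gave 8 in the latter. Slide as a fixed block and the replicate block each left 0 between the alleles. Differences from C24 could not be estimated with slide as a fixed block. Replicate differences of pairs of genotypes correlated between -0.375 and 0.0626 over 35250 probes, so the replicate numbers were not taken to pair the arrays. Normexp moved the median of all probes in hda6-10 from 0.0241 to 0.11 against ros1-1 and from 0.0182 to 0.127 against C24.

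With single arrays left out, the pathway calls ranged from 2 to 7 in hda6-9 against ros1-1, 0 to 1 between the alleles, 1 to 5 in hda6-9 against C24 and 2 to 6 in hda6-10 against C24. Log2 differences that changed sign then ranged as follows. In C24 against ros1-1 they ran from -1.40 to 1.04 and -1.41 to 1.00 (CYP71A13 probes), -1.12 to 0.40 and -1.24 to 0.40 (CYP79B2 probes), -1.62 to 0.62 (PAD3), -1.71 to 0.036 (FOX1) and -3.18 to 1.56 (CYP82C2). Between the alleles they ran from -2.33 to 0.95 and -2.40 to 0.86 (CYP71A13 probes) and from -0.26 to 0.094 (CYP79B3). For FOX1 they ran from -1.64 to 0.11 in hda6-9 against ros1-1 and from -0.44 to 0.59 against C24. For CYP82C2 in hda6-10 they ran from -4.31 to 0.43 against ros1-1 and from -2.95 to 0.69 against C24.

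Other changes of sign were CYP82C2 in hda6-10 against C24 (0.47 with normexp, 0.69 with the combined table) and, with slide as a fixed block, FOX1 in hda6-9 against ros1-1 (0.63) and CYP79B3 (0.052) and CYP82C2 (-2.68) between the alleles. The cause was not tested. CYP82C2 was well above background on 4 of 8 arrays, which limits its values.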
